A study of Mus musculus with 89 samples.

Results

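T, Eomes, Tbx6, Mixl1, Gsc, Evx1, Lhx1, Mesp1, Wnt3 and Fgf8 encode 8 transcription factors and 2 secreted ligands of the mouse primitive streak and early mesoderm. They were taken by gene symbol, not by level, and are 10 of the 26276 named genes in an RNA-seq count table. The table holds 3 libraries treated with dTAG and 3 control libraries, all from V6.5 mouse embryonic stem cells, a cultured line of pluripotent cells. The genotype H2afz-FKBP-V, which places a degradation tag on the histone variant H2A.Z.1, was carried by both the dTAG and the control cells. A dTAG molecule binds the tag and brings the tagged protein to a ubiquitin ligase, so the comparison asks how steady-state RNA differed when H2A.Z.1 was depleted. Cells grew with LIF, the MEK inhibitor PD0325901 and the GSK3 inhibitor CHIR99021. The labels give neither the length of dTAG treatment nor the number of tagged clones. They also do not say whether replicates were separate cultures, and each p-value therefore reflects variation among these 6 libraries, which may be technical. The tag acts on the protein, so RNA counts of H2afz do not check the labels. They were 1376, 120 and 65 in dTAG 1, dTAG 2 and dTAG 3, against 1123, 1282 and 1349 in Control 1, Control 2 and Control 3. These raw counts give no size of change, because dTAG 2 and dTAG 3 were far shallower. Totals in named genes were 12907095, 2131648 and 1812405 in dTAG 1, dTAG 2 and dTAG 3, against 14091745 to 15652795 in the controls.

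In the gastrulating embryo, Nodal, BMP and Wnt signals set up the streak, through which epiblast cells leave to form mesoderm and definitive endoderm. Wnt3 is the ligand that starts the streak, T (brachyury) and Eomes are T-box factors that drive mesoderm and endoderm programmes, and Mixl1, Gsc, Evx1 and Lhx1 are homeobox factors that mark different positions along it. Mesp1 follows in the earliest cardiac and cranial mesoderm, Tbx6 in the presomitic mesoderm, and Fgf8 is needed for cells to move away from the streak. In undifferentiated stem cells these genes are known to be held nearly silent by Polycomb complexes, at promoters where H2A.Z has also been found. GSK3 inhibition stabilises β-catenin, which acts on DNA through TCF/LEF factors, and MEK inhibition blocks the ERK response to FGF.

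The promoters of 4 genes are shown, T as the gene that defines the streak and Mesp1, Lhx1 and Evx1 as the genes with the largest ratios of dTAG 3 to the controls. Each sequence is the 250 bases before the annotated start, 5′ to 3′ on the gene's strand, from RefSeq (GRCm38.p6), and capitals mark matches to the TCF/LEF motif in either direction. The windows are chr17:8434173-8434422 on the plus strand for T, chr7:79793591-79793840 on the minus strand for Mesp1, chr11:84525535-84525784 on the minus strand for Lhx1 and chr6:52313248-52313497 on the plus strand for Evx1.
T: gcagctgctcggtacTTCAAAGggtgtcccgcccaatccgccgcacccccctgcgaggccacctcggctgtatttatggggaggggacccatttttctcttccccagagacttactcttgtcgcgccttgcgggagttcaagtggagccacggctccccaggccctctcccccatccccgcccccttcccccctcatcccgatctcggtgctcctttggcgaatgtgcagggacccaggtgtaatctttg
Mesp1: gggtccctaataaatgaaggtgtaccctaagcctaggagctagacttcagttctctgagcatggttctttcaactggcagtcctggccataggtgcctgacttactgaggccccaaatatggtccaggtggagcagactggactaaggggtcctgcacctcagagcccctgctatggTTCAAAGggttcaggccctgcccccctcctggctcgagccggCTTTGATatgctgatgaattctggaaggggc
Lhx1: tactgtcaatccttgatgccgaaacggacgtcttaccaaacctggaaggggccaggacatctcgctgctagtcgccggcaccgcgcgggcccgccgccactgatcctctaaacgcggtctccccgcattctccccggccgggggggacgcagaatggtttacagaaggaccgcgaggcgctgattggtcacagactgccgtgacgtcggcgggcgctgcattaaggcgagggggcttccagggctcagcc
Evx1: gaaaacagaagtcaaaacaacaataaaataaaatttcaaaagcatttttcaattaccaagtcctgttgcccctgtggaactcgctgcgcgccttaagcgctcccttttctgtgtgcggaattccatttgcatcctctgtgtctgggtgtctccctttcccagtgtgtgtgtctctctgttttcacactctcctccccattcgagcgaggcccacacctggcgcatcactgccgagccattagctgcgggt

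Promoter entries were matched for 8 of the 10 genes, and Mixl1 and Fgf8 had none. The TCF/LEF motif was searched on both strands as CTTTGAA, as CTTTGAT, as CTTTGTA and as CTTTGTT. T held CTTTGAA on the opposite strand, 235 to 229 bases before its start. Mesp1 held CTTTGAA on the opposite strand, 73 to 67 bases before its start, and CTTTGAT on its own strand, 31 to 25 bases before it. Any of the 4 forms was present in 2 of the 8 promoters and in 14.8% of 32851 RefSeq promoter windows of the same length. The T-box element TCACACCT was in 0 of the 8 and in 1.12% of all windows. CpG dinucleotides numbered 26 in the Lhx1 window, 14 in T, 10 in Evx1 and 2 in Mesp1. The 8 windows had a median of 12 CpG, against 6 over all windows, whose quartiles were 2 and 16. A match describes letters in this window and says nothing about binding.

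The libraries differed in ways that bear on every value below. dTAG 1 held 12907095 counts in named genes, dTAG 2 held 2131648 and dTAG 3 held 1812405, while the controls held 14244326, 15652795 and 14091745. Levels are given as CPM, counts scaled to 1000000 counts in named genes, on which 3 counts equal 0.232, 1.41 and 1.66 CPM in dTAG 1, 2 and 3, and 0.192 to 0.213 CPM in the controls. Olfactory and vomeronasal receptor genes, 1430 genes that stem cells are not known to use, had at least 1 count for 23.1%, 71.3% and 97.1% of them in dTAG 1, 2 and 3, against 10.8% to 17.6% in the controls. These genes took 0.0155%, 0.239% and 0.811% of the counts in dTAG 1, 2 and 3, against 0.00459% to 0.00578% in the controls. Markers of embryonic stem cells had counts in every library, and their summed level was 3322, 2038 and 661 CPM in dTAG 1, 2 and 3, against 3055 to 3232 CPM in the controls. dTAG 2 and dTAG 3 are therefore set apart from dTAG 1 throughout.

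In the controls and in dTAG 1 the streak and mesoderm genes were low, and in dTAG 2 and dTAG 3 every gene of the set was above all 3 controls. The set summed to 32.0, 205 and 560.03 CPM in dTAG 1, 2 and 3, against 22.7, 21.0 and 21.9 CPM in Controls 1, 2 and 3. dTAG 3 was above dTAG 2 for all 10 genes. The share of all genes with this order was not computed. The median over all named genes was also higher in dTAG 3, at 23.2 CPM against 11.7 CPM in dTAG 2. Of all 25668 genes with a count, 65.4% likewise had dTAG 2 and dTAG 3 above all 3 controls, so the direction alone does not set these genes apart. All 3 dTAG libraries were above all 3 controls for 5 genes, T, Mixl1, Gsc, Lhx1 and Mesp1, and for 23.2% of all genes. In bulk RNA, more cells with a transcript and more transcript per cell cannot be told apart.

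**Figure D1:**
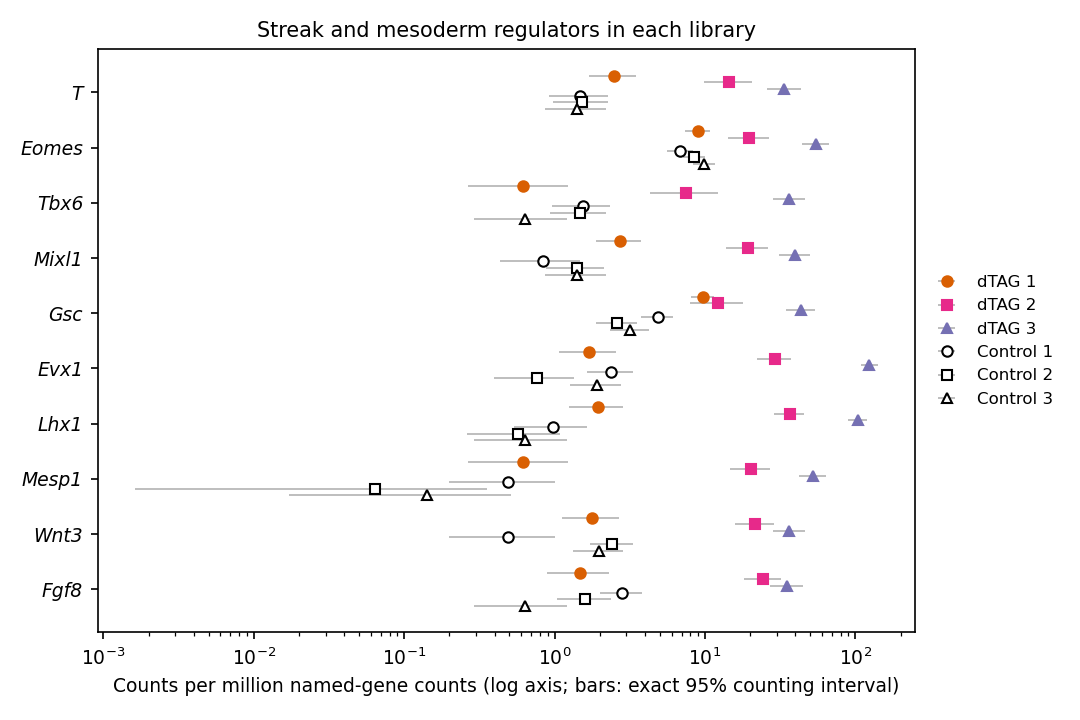
Level of each gene in each library, in CPM on a log axis, with exact 95% counting intervals as bars; filled symbols are dTAG libraries and open symbols controls. For all 10 genes the dTAG 2 and dTAG 3 symbols lie to the right of the 3 controls, while dTAG 1 lies above the controls for 5 genes, below them for Tbx6 and among them for 4.

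Among the T-box factors, T (chr17:8434423-8442496) had 2.48, 14.5 and 33.7 CPM in dTAG 1, 2 and 3, against 1.47, 1.53 and 1.42 CPM in Controls 1, 2 and 3. The controls lay close together for T, at 1.48 ± 0.0570 CPM (SD, n = 3), and no dTAG library overlapped them. The 32 counts behind the dTAG 1 value gave a ratio of 1.68 to the pooled controls, with an exact 95% counting interval of 1.06 to 2.60. Intervals of this kind cover counting error alone, and reads without molecular identifiers are not independent molecules. Eomes (chr9:118478186-118486132), which acts with T in mesoderm and specifies definitive endoderm, had 8.99, 19.7 and 54.6 CPM in dTAG 1, 2 and 3, against 6.88, 8.50 and 9.93 CPM in the controls. dTAG 1 lay inside the control range for Eomes, and its dTAG 2 and dTAG 3 ratios to the pooled controls, 2.34 and 6.48, were the smallest of the set. Tbx6 (chr7:126781483-126785548), which directs cells to paraxial mesoderm, had 0.620, 7.51 and 36.4 CPM in dTAG 1, 2 and 3, against 1.54, 1.47 and 0.639 CPM in the controls. Tbx6 was the single gene with dTAG 1 below every control, by 8 counts against 22, 23 and 9, and the ratio of 0.505 had an interval of 0.208 to 1.07 that included 1.

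Of the homeobox factors, Mixl1 (chr1:180693043-180697034), needed for mesendoderm morphogenesis, had 2.71, 19.2 and 39.7 CPM in dTAG 1, 2 and 3, against 0.842, 1.41 and 1.42 CPM in the controls. No dTAG library overlapped the controls, and the dTAG 1 ratio was 2.21 (1.40 to 3.44). Gsc (chr12:104471209-104473236), a repressor expressed in the anterior streak and organizer, had 9.68, 12.2 and 43.6 CPM in dTAG 1, 2 and 3, against 4.84, 2.62 and 3.19 CPM in the controls. Gsc differed from the rest in that dTAG 1 stood almost as high as dTAG 2, with 125 counts in dTAG 1 against 69, 41 and 45 counts in the controls. Its dTAG 1 ratio was 2.75 (2.15 to 3.50) and its dTAG 2 ratio 3.46. Lhx1 (chr11:84517975-84525534), a LIM homeobox factor of anterior mesendoderm and head organizer, had 1.94, 36.6 and 104 CPM in dTAG 1, 2 and 3, against 0.983, 0.575 and 0.639 CPM in the controls. The groups did not overlap for Lhx1, whose ratios to the pooled controls were 2.66 in dTAG 1 (1.51 to 4.64), 50.3 in dTAG 2 and 143 in dTAG 3. Evx1 (chr6:52313498-52318389), a marker of the posterior streak, had 1.70, 29.1 and 124 CPM in dTAG 1, 2 and 3, against 2.39, 0.767 and 1.92 CPM in the controls. dTAG 1 lay within the spread of the controls for Evx1, and dTAG 3 was 74.8 times the pooled controls (57.2 to 98.8).

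Mesp1 (chr7:79792241-79793590), the basic helix-loop-helix factor of nascent cardiac mesoderm, had 0.620, 20.2 and 52.4 CPM in dTAG 1, 2 and 3, against 0.491, 0.0639 and 0.142 CPM in the controls. The control values rest on 7, 1 and 2 counts and differed 7.69-fold among themselves. Controls 2 and 3 lay below the floor of 3 counts, and the largest ratio of the set, 231 in dTAG 3, has a wide interval of 120 to 496. In dTAG 1, 8 counts gave a ratio of 2.73 whose interval, 0.935 to 7.67, included 1.

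The ligand Wnt3 (chr11:103774175-103818021) had 1.78, 21.6 and 36.4 CPM in dTAG 1, 2 and 3, against 0.491, 2.43 and 1.99 CPM in the controls. The controls spread 4.94-fold and held dTAG 1 between them. Fgf8 (chr19:45736491-45742941), which signals through FGF receptors to ERK, had 1.47, 24.4 and 35.3 CPM in dTAG 1, 2 and 3, against 2.81, 1.60 and 0.639 CPM in the controls. dTAG 1 lay inside the control range for Fgf8 too, and the ratios in dTAG 2 and dTAG 3, 14.5 and 21.0, were the closest to each other in the set. Gene lengths were not used, so no level is compared between genes.

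dTAG 1 was the deep dTAG library and shared the depth of the controls. It stood above all 3 controls for 5 of the 10 genes, against 31.9% of all genes with a count, and below all 3 for Tbx6, against 12.8% of all genes. The counting interval of its ratio to the controls lay above 1 for T, Mixl1, Gsc and Lhx1, 4 of 10 genes, and for 30.9% of all 23058 genes with a count in these libraries. The summed level of the set in dTAG 1 was 1.46 times that of the pooled controls (1.30 to 1.65). Without Gsc, a choice made after the values were seen, the sums were 22.3 CPM in dTAG 1 and 17.9, 18.3 and 18.7 CPM in the controls, a ratio of 1.22 (1.06 to 1.39). The 8676 other genes with a control mean in the range of the set had a median of 2.17 CPM in dTAG 1. Their medians in Controls 1, 2 and 3 were 1.68, 1.66 and 1.70 CPM. A higher level in dTAG 1 was therefore not particular to the set. Receptor genes were also higher in dTAG 1, at 3.03 times the pooled controls (2.85 to 3.22), and their part in the values above was not tested.

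Tested with the spread between controls (edgeR quasi-likelihood, Benjamini-Hochberg adjustment over 18143 genes, the lone dTAG library assumed to vary like the controls), none of the 9 genes of the set that were tested passed an adjusted p of 0.05 in dTAG 1. Over all genes, 16 passed (0.0882%), 11 higher and 5 lower, and 1041 (5.74%) had an unadjusted p under 0.05. Gsc was the gene of the set with an unadjusted p under 0.05, at a log2 fold change of 1.37 (SE 0.55, adjusted p = 0.690 in edgeR). DESeq2 and limma-voom likewise passed 0 of the set in dTAG 1. The log2 fold changes of Lhx1, Mixl1 and T were 1.32 (SE 1.45), 1.05 (SE 1.11) and 0.66 (SE 1.06), each with an SE larger than the value, and Tbx6 was at -1.04 (SE 1.61). Eomes was at 0.0027 (SE 0.44), the tightest of the near-zero values, and Wnt3, Evx1 and Fgf8 were at 0.018, -0.055 and -0.26 with SE above 1. The median log2 fold change of the set was 0.018, against -0.016 over all genes tested. At these counts a change of the size of the SE was not detectable.

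With all 3 dTAG libraries in the fit, 0 of 9 tested genes of the set and 0 of 18116 genes over the whole table (0%) passed an adjusted p of 0.05 in edgeR. Mesp1 was not tested there because it reached the filter level of 0.741 CPM in dTAG 2 and dTAG 3 alone. The filter asked for that level in at least 3 libraries. T, Eomes, Mixl1, Gsc and Evx1 met it on the controls alone, while Wnt3, Lhx1, Tbx6 and Fgf8 needed dTAG libraries to enter. Of the 5 genes that entered on the controls alone, T, Mixl1, Gsc and Evx1 had an unadjusted p under 0.05, as did 4202 of all genes (23.2%). Their log2 fold changes ran from 0.61 (SE 0.43) for Eomes to 3.58 (SE 1.03, adjusted p = 0.0965 in edgeR) for Evx1, beside a median of 0.16 over all genes. The fit had a common dispersion of 0.424, against 0.105 with dTAG 1 and the controls alone. DESeq2, which filters on the mean over all libraries, passed 6 genes of the set as higher and 22.9% of all genes. The 6 were T, Mixl1, Gsc, Evx1, Lhx1 and Mesp1. That mean includes dTAG 2 and dTAG 3, in which Lhx1 and Mesp1 were high. Whether either gene would have entered DESeq2 on the controls alone was not checked. With limma-voom, 0 of the set passed. Without a filter on low counts, edgeR passed Evx1, Lhx1 and Mesp1 as higher (adjusted p = 0.0423, 0.0220 and 0.0332), beside 5.45% of all genes.

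Leaving out dTAG 1 turned the call for most of the set. In the fit of dTAG 2 and dTAG 3 against the controls, 8 genes entered on the controls alone, and 7 of these passed as higher in edgeR, beside 40% of all 22093 genes tested as higher and 59.8% in either direction. Evx1 rose by a log2 fold change of 3.85 (adjusted p = 0.000152) and Mixl1 by 3.06 (adjusted p = 0.00190). Fgf8, Wnt3, T, Tbx6 and Gsc also passed, with Gsc the smallest at 1.36 (adjusted p = 0.0404 in edgeR). Eomes had a log2 fold change of 0.56 (adjusted p = 0.196 in edgeR) and did not pass. Lhx1 reached the filter in 1 control and Mesp1 in 0, so each entered through the dTAG libraries in which it was high, and their log2 fold changes of 4.99 and 5.70 are a description with no test. The receptor genes moved with this result, at 71.3% and 97.1% of genes detected in dTAG 2 and dTAG 3, and their part in it was not tested.

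**Figure D2:**
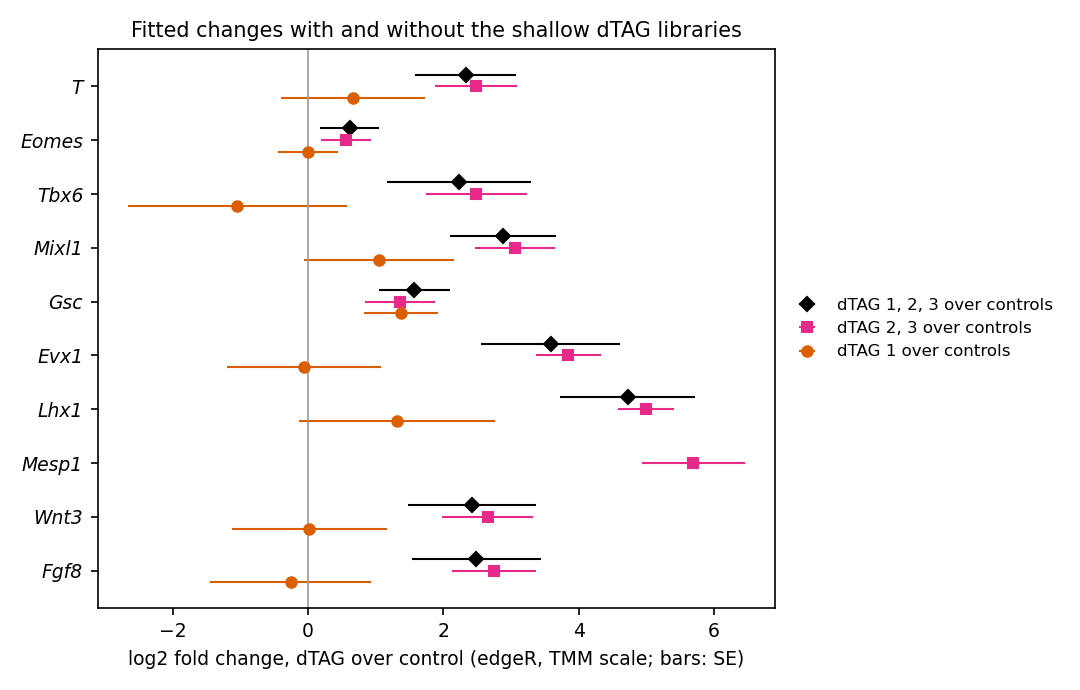
Log2 fold changes of dTAG over control from edgeR on the TMM scale, with SE as bars, for all 3 dTAG libraries (diamonds), dTAG 2 and 3 (squares) and dTAG 1 (circles); Mesp1 entered the fit of dTAG 2 and 3 only. Gsc has nearly the same value in all 3 fits, at 1.57, 1.36 and 1.37, while the circles of Evx1, Wnt3 and Eomes sit near 0.

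The libraries dTAG 2 and dTAG 3 had similar totals, but the set gave 437 counts in dTAG 2 and 1015 in dTAG 3. The ratio of dTAG 2 to dTAG 3 counts was 0.431 for the summed set (0.384 to 0.482), 0.347 for the summed receptor genes (0.336 to 0.358) and 1.18 for all named genes. Single genes ranged from 0.242 for Tbx6 to 0.812 for Fgf8. The receptor ratio lay inside the counting interval for 7 genes and below it for Mixl1, Wnt3 and Fgf8. The ratios of these last genes were 0.569 (0.378 to 0.847), 0.697 (0.468 to 1.03) and 0.812 (0.552 to 1.19). Low counts make such intervals wide, and the share of all genes whose interval held the receptor ratio was not computed. Gsc and Eomes were the genes with more raw counts in dTAG 1 than in dTAG 3, by 1.58 and 1.17 times. dTAG 1 was far deeper, and in CPM both genes were lower there than in dTAG 3. Gsc had 9.68 against 43.6 CPM and Eomes 8.99 against 54.6 CPM.

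**Figure D3:**
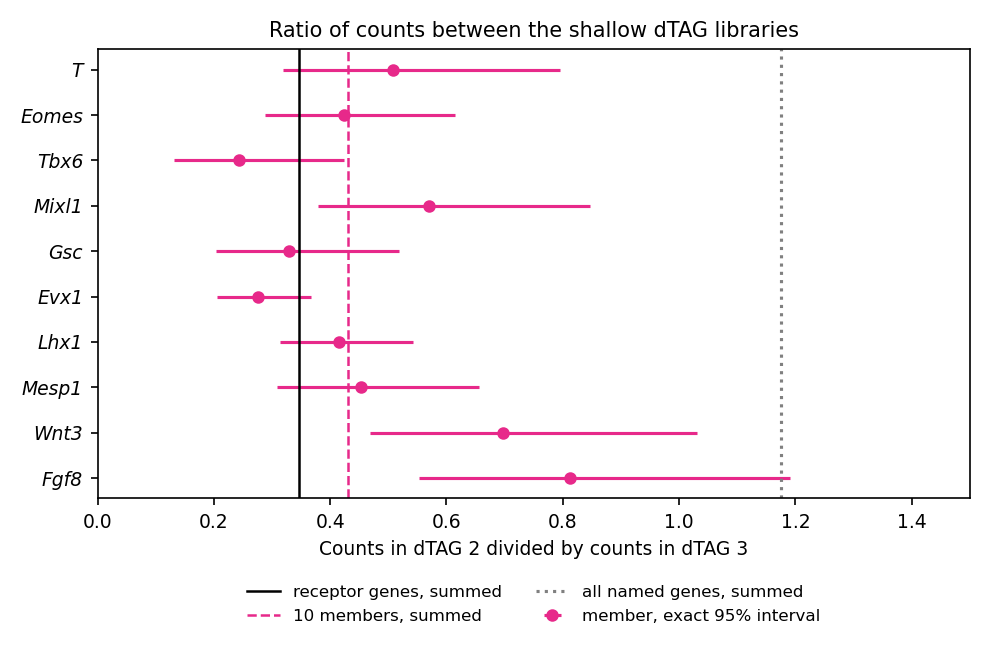
Counts in dTAG 2 divided by counts in dTAG 3 for each gene, with exact 95% intervals as bars, beside the summed set (dashed line, 0.431), the summed receptor genes (solid line, 0.347) and all named genes (dotted line, 1.18). Tbx6 and Evx1 lie lowest, and Wnt3 and Fgf8 lie highest and to the right of the receptor line.

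Genes of similar control level gave a scale for the dTAG 3 values. Among 8676 other genes whose control mean lay within that of the set, 0.232 to 8.44 CPM, 85.4% had dTAG 2 and dTAG 3 above all controls and 33.0% had dTAG 1 above them. The median log2 ratio of dTAG 3 to the control mean, after adding 1 CPM to each, was 3.37 in those genes. On this scale Lhx1, Evx1 and Mesp1 reached 5.92, 5.54 and 5.44, each above the upper quartile of genes in its own band of control level. The other 7 genes, from 2.56 for Eomes to 4.20 for Mixl1, lay between the quartiles of their bands. By construction 25% of genes lie above an upper quartile, so 3 of 10 is near that share.

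**Figure D4:**
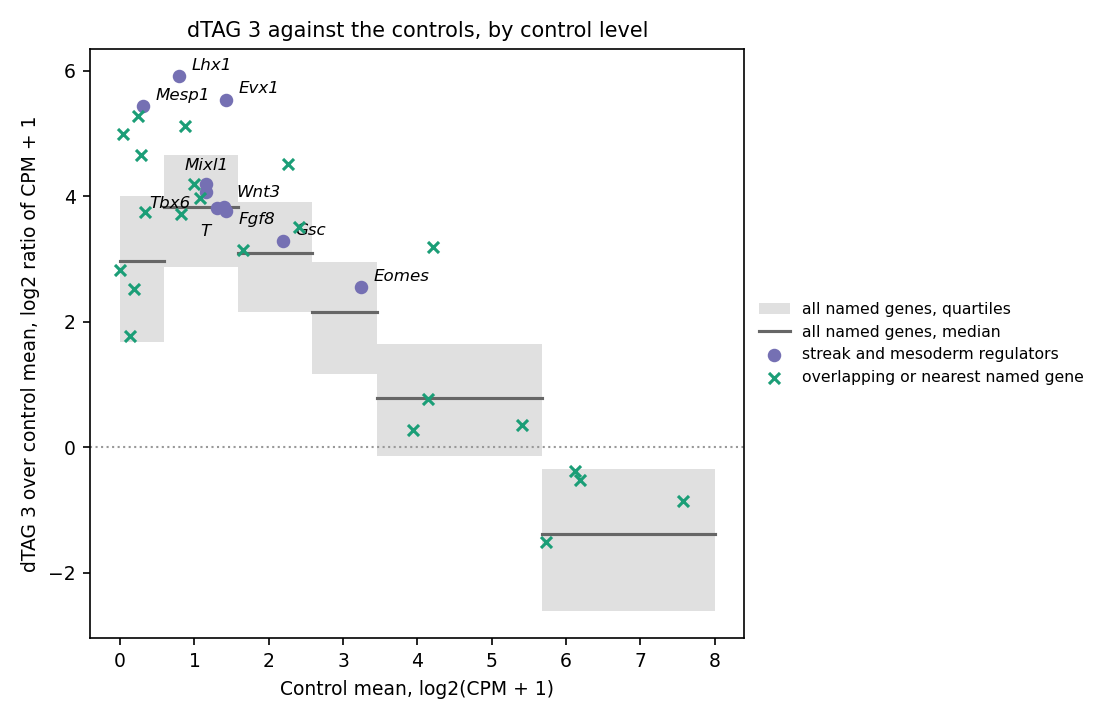
Log2 ratio of dTAG 3 to the control mean (1 CPM added to each) against control level for the 10 genes (circles) and the named genes that overlap or lie nearest to them (crosses), over the median and quartiles of all named genes in bands of control level (grey). Lhx1, Evx1 and Mesp1 lie above the grey band at their control level, and the bands fall below 0 for the most abundant genes.

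Neighbouring genes on the chromosome were grouped by control level. The 22 named genes that overlap or lie nearest to the set in RefSeq included 14 under 10 CPM in the controls. Of these, 12 had dTAG 2 and dTAG 3 above all controls, as did 1 of the 8 at 10 CPM or more. Over all named genes the share was 73.5% to 88.9% in bands of control level under 10 CPM. It was 49.0% from 10 to 50 CPM and 11.1% at 50 CPM or more, so this split was not particular to the neighbours. Mesp2, the paralogue of Mesp1 that acts in somite formation, had 0.697, 14.1 and 35.9 CPM in dTAG 1, 2 and 3, against 1.47, 0.319 and 1.21 CPM in the controls. Hoxa13, a posterior Hox gene 52618 bases from Evx1, had 3.41, 28.6 and 59.6 CPM, against 5.34, 4.09 and 3.55 CPM in the controls. Ppp4c, a phosphatase gene 318 bases from Tbx6, had 62.9, 71.3 and 52.4 CPM in dTAG 1, 2 and 3, against 73.4, 60.9 and 70.9 CPM in the controls. dTAG 3 was above all controls for 14 of the 14 neighbours under 10 CPM and for 3 of the 8 at 10 CPM or more. The share of all genes with dTAG 3 above the controls, whatever dTAG 2 did, was not computed.

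Overlapping transcripts limit 2 of the values. Evx1os, a long noncoding RNA that overlaps Evx1, had 30, 45 and 81 counts in dTAG 1, 2 and 3, against 2, 5 and 1 counts in the controls. The log2 fold change of Evx1os in dTAG 1 was 3.55 (SE 1.78, adjusted p = 0.873 in edgeR), while Evx1 itself was at -0.055. Wnt9b overlaps Wnt3 in the annotation and had 0.542, 25.8 and 62.9 CPM in dTAG 1, 2 and 3, against 0.842, 0.319 and 1.35 CPM in the controls. Each of these genes has its own counts, but no source used here says whether counting used the strand. How reads were assigned where Evx1 and Evx1os, or Wnt3 and Wnt9b, overlap could therefore not be checked.

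Upstream signals and downstream genes were followed as lists, in which 0 genes passed in either edgeR fit (0% of all genes with 3 dTAG libraries, 0.0882% in dTAG 1). Of 41 genes of the Nodal, BMP and Wnt pathways that feed the streak, 39 were tested and 7 had an unadjusted p under 0.05 with 3 dTAG libraries, against 23.2% of all genes. As with the set, some listed genes passed the filter only through dTAG libraries. Medians and counts over those tested, here and in the lists below, are therefore a description with no test. The tested genes of these pathways had a median log2 fold change of -0.29 with 3 dTAG libraries and -0.10 in dTAG 1. Over all genes tested, the medians were 0.16 and -0.016. In CPM, the median level of the 41 genes was higher in dTAG 2 and dTAG 3 than in any control. It was 19.1, 30.5 and 52.4 CPM in dTAG 1, 2 and 3, against 18.2 to 21.0 CPM in the controls. Ctnnb1, which encodes β-catenin, had 462, 296 and 77.8 CPM in dTAG 1, 2 and 3, against 486, 430 and 442 CPM in the controls. Tdgf1, the Nodal co-receptor and also on the list of stem cell markers, had 254, 151 and 22.6 CPM, against 295, 282 and 298 CPM in the controls. dTAG 3 was far below the controls for these abundant genes, and dTAG 1 was closer to them.

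Of 37 genes of later mesoderm and definitive endoderm, 33 were tested with 3 dTAG libraries. The median log2 fold change of those tested was 2.40 there and 0.36 in dTAG 1, beside 0.16 and -0.016 over all genes tested. Over the 37 genes, the median level was 1.55, 15.5 and 39.2 CPM in dTAG 1, 2 and 3, against 1.28 to 1.34 CPM in the controls. Cdx1, a caudal homeobox factor and Wnt target, stood among the most abundant of them, at 32.0, 40.3 and 84.4 CPM in dTAG 1, 2 and 3, against 36.4, 35.7 and 32.9 CPM in the controls. Tcf15, a factor of paraxial mesoderm, had 38.0, 64.3 and 40.3 CPM, against 27.5, 28.9 and 32.6 CPM in the controls. dTAG 1 was below the controls for Cdx1 and above them for Tcf15, and neither passed.

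The median of each family list was higher in dTAG 2 and dTAG 3 than in any control. Homeobox relatives (19) had 1.78, 16.4 and 46.9 CPM as medians in dTAG 1, 2 and 3, against 1.49 to 1.92 CPM in the controls. T-box relatives (14) had medians of 3.33, 15.0 and 42.5 CPM, against 2.45 to 2.91 CPM in the controls, and the abundant Tbx3, a T-box factor of stem cell self-renewal that is also on the list of stem cell markers, had 158, 132 and 88.8 CPM, against 177, 136 and 158 CPM. Other Wnt ligands (16) had medians of 1.78, 19.0 and 57.1 CPM, against 0.543 to 1.16 CPM in the controls. Wnt7b, the most abundant of them in the controls, had 192, 241 and 319 CPM in dTAG 1, 2 and 3, against 230, 217 and 200 CPM in the controls, with log2 fold changes of -0.55 with 3 dTAG libraries and -0.25 in dTAG 1. Wnt11, a ligand of gastrulation movements, had 3.64, 23.0 and 92.1 CPM, against 2.81, 1.41 and 5.39 CPM in the controls. Other FGF ligands (15) had medians of 0.542, 9.85 and 25.9 CPM, against 0.497 to 0.703 CPM in the controls.

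The list medians of markers of lineages outside the streak were also higher in dTAG 2 and dTAG 3 than in any control. Neuroectoderm markers (14) had medians of 2.60, 19.2 and 57.9 CPM in dTAG 1, 2 and 3, against 1.77 to 2.77 CPM in the controls. Primitive endoderm markers (11) had medians of 3.41, 21.6 and 55.2 CPM, against 1.72 to 2.63 CPM in the controls. Trophoblast markers (10) had medians of 2.83, 15.2 and 40.8 CPM, against 2.59 to 4.29 CPM in the controls. The most abundant of them stayed near the controls. Tfap2c had 83.4, 84.0 and 68.4 CPM, against 74.2 to 102 CPM, and Krt18 had 66.8, 63.8 and 76.1 CPM, against 47.3 to 74.2 CPM. The most abundant markers of the other lists, Nes, Ncam1, Lama1, Col4a1, Pdgfrb and Thy1, were above all controls in dTAG 2 and dTAG 3. Feeder fibroblast markers (12) summed to 46.3, 159.97 and 472 CPM in dTAG 1, 2 and 3, against 32.1 to 47.0 CPM in the controls, and 4 of them were at 0 in dTAG 1 and 0 were in dTAG 2 and dTAG 3, against 3 or 4 in the controls. By list median, the streak, neuroectoderm, extraembryonic and fibroblast lists were thus higher together, and the part of other cell types in the streak values was not tested.

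**Figure D5:**
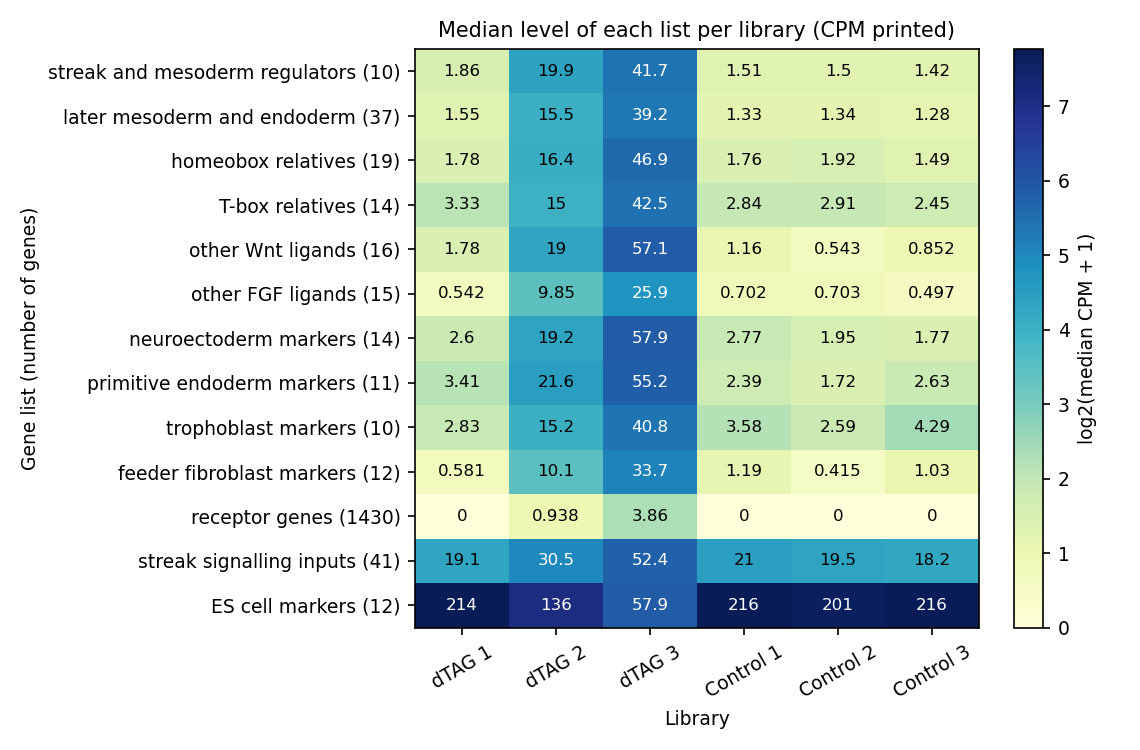
Median CPM of each gene list in each library, with the number of genes in brackets and colour showing log2(median CPM + 1). The streak set and the lists of other lineages share pale cells in dTAG 1 and the controls and darker cells in dTAG 2 and dTAG 3, while the embryonic stem cell markers run the other way, at 214, 136 and 57.9 CPM in dTAG 1, 2 and 3 against 201 to 216 CPM in the controls.

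The pattern across the 6 libraries was common in the table. The mean log2(CPM + 1) of the set had a Pearson correlation of at least 0.95 with 6320 of 18116 tested genes (34.9%). Of the set, whose genes each contribute to that mean, 9 reached 0.95, with T highest at 0.999, and Gsc did not, at 0.919. The genes outside the set with the most similar profile were Slc5a5, Mir9-3hg, Bsn, Ano1 and Acsm2. Slc5a5, the sodium-iodide symporter of thyroid, had 6.51, 30.0 and 64.6 CPM in dTAG 1, 2 and 3, against 5.62, 5.56 and 5.11 CPM in the controls. These correlations describe 6 libraries that differ chiefly in dTAG 2 and dTAG 3, and depth and the receptor share followed the same order.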

How the data were processed

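The deposited table gives raw counts as whole numbers for 27179 features. Per the submitters' processing notes, STAR 2.7.2b, featureCounts, edgeR and limma were used with mm10, with no role or setting named. Per the labels' protocols, ERCC spike-ins were added and libraries were ribosome-depleted, although an mRNA kit is named. The table held 0 ERCC features. The 903 features with no name stayed outside totals and tests, and 95.5% of named symbols matched RefSeq (GRCm38.p6). The other 83 of 89 samples are not analysed here.

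CPM are counts per 1000000 named-gene counts. Tests used edgeR 4.0.16 in R 4.3.3 (glmQLFit, glmQLFTest, two-sided, TMM, filterByExpr with a minimum count of 10 and total of 15, Benjamini-Hochberg over all tested genes), after a test on simulated data. DESeq2 1.42.0 and limma 3.58.1 (voom) were alternatives. Counting intervals are exact at 95%. No libraries were near-duplicates (lowest chi-square per gene 9.82). All 10 regulators are named, and of each further list examples from the 2 most abundant in the controls. Neighbours with values were picked after these were seen. The regulators, lists and tests were chosen with earlier results of these data known.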

Additional observations from a re-analysis of the deposited data

Results flagged for a closer look

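Features without a gene name, which enter no comparison above, took 6.67% of all counts in dTAG 2 and 14.6% in dTAG 3, against 2.33% in dTAG 1 and 2.20%, 2.37% and 2.33% in Controls 1, 2 and 3. They were marked because this signal outside the measurement was above the level of all 3 controls in the libraries in which all 10 streak and mesoderm genes were also above the controls.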

How the results depend on the processing

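With 3 dTAG libraries, edgeR passed 0 of the set and 0 genes over the table, and RLE scaling, library totals, a filter of 1 CPM and limma-voom gave 0 and 0 too. The numbers moved without the filter on low counts (3 of the set and 1398 genes), with DESeq2 (6 and 5196) and with dTAG 1 alone (0 and 16). The 6 include Lhx1 and Mesp1, for which entry on the controls alone was not checked. Leaving out single libraries gave 0 to 9 of the set and 0 to 13222 genes, the highest values coming without dTAG 1, where the 9 include Lhx1 and Mesp1, which entered through dTAG 2 and dTAG 3. A replicate block gave 0 of the set and 13 genes. Same-numbered deviations from the group means correlated at 0.044, -0.026 and 0.035. These values cannot decide whether replicate numbers pair the samples, because the differences of dTAG 2 and dTAG 3 from dTAG 1 could hide a pairing. Library totals moved the median log2 fold change of all genes to 1.11, from 0.16 with TMM. For dTAG 1 against the controls, 0 of the set passed under every alternative run. Genes passing numbered 16 with RLE, 18 with library totals, 41 without the filter, 20 with DESeq2, 5 with limma-voom and 20 to 60 (highest without Control 1) when a control was left out. Of the single-gene values with 3 dTAG libraries, 107 kept their direction and side of the threshold, 15 came to pass and 3 reversed with dTAG 1 alone, Evx1 (-0.055), Tbx6 (-1.04) and Fgf8 (-0.26). In dTAG 1, 8 values reversed: Eomes without the filter (-0.0059), Evx1 with library totals (0.015) and limma-voom (0.094), and, when single controls were left out, Eomes (range -0.15 to 0.14), Evx1 (-0.39 to 0.24), Wnt3 (-0.42 to 0.44) and Fgf8 (-0.64 to 0.27). The cause was not tested. Depth limits the set most in Mesp1, with 1 to 7 control counts.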

Other observations

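T2, a gene next to T, and C130046K22Rik, a long noncoding RNA gene next to Wnt3, were above all controls in dTAG 1, where depth was close to that of the controls. So were the neighbours Golga4, Lin9, Evx1os, 1700094M24Rik, Ypel3 and Npm3, and 31.9% of all genes with a count, so this position alone does not set them apart. T2 had 3.33, 1.41 and 22.1 CPM in dTAG 1, 2 and 3, against 0.351, 0.511 and 1.42 CPM in Controls 1, 2 and 3, and the log2 fold change in dTAG 1 was 2.03 (adjusted p = 0.961 in edgeR). C130046K22Rik had 4.88, 14.1 and 32.0 CPM, against 1.26, 0.703 and 1.35 CPM in the controls, and the log2 fold change in dTAG 1 was 2.06 (adjusted p = 0.801 in edgeR). Neither passed, and both were picked after their values were seen. Ypel3, 973 bases from Tbx6 and the single abundant neighbour with dTAG 2 and dTAG 3 above all controls, had 19.4, 46.4 and 169 CPM in dTAG 1, 2 and 3, against 17.5, 18.5 and 16.6 CPM in the controls.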
